A study of Mus musculus with 12 samples.

Results

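The dual-specificity MAP kinase phosphatases are enzymes that switch off the MAP kinases ERK, p38 and JNK. The 9 genes *Dusp1*, *Dusp2*, *Dusp3*, *Dusp4*, *Dusp5*, *Dusp6*, *Dusp7*, *Dusp10* and *Dusp16* were taken from a table of 48526 mouse genes by matching each Ensembl identifier to its symbol, and each symbol matched 1 row. RNA was sequenced from bone marrow-derived macrophages (BMDMs), which are macrophages grown in culture from whole bone marrow. The marrow came from 3 female C57Bl/6J mice, with no altered genotype named in the labels. All cultures were grown with 10 ng/mL mCSF and used on day 7, according to the labels. For each mouse, cells without treatment were set beside cells given 100 ng/mL Wnt3a, 100 pg/mL IL-4 or both for 16 hr, which gave 4 groups of 3 samples. Cells in all groups therefore came from the same 3 animals and had been exposed to mCSF.

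A MAP kinase is active when a threonine and a tyrosine of its activation loop are both phosphorylated, and a dual-specificity phosphatase removes the phosphate from both. Several of the genes are themselves switched on by MAP kinase signaling, so that the enzymes form a feedback on the pathway that induces them. Among them, DUSP1 is known in macrophages for limiting the cytokine response to microbial products. The products differ in place and in preferred substrate. DUSP1, DUSP2, DUSP4 and DUSP5 are inducible enzymes of the nucleus, DUSP6 and DUSP7 are enzymes of the cytoplasm that prefer ERK, DUSP10 and DUSP16 prefer p38 and JNK, and DUSP3 is a small phosphatase that lacks the MAP kinase-binding domain of the others.

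The deposited counts of both Wnt3a-containing groups shared reads. Within a mouse, no gene had fewer counts in the column labelled Wnt3a than in that labelled Wnt3a+IL-4, or more than 2 times as many (0 of 48526 genes), whereas 6681 to 8625 genes broke these limits when the columns came from different mice. Both columns were therefore resolved, mouse by mouse, into a difference, obtained by subtracting Wnt3a+IL-4 from Wnt3a, and a remainder, obtained by subtracting Wnt3a from 2 times Wnt3a+IL-4. Both parts come from Wnt3a-treated cells, but which of them also received IL-4 cannot be told from the labels. The resulting 12 libraries held 13342492 to 17453377 counts each. Macrophage marker transcripts (*Adgre1*, *Csf1r*, *Cd68*, *Itgam*, *Mertk*, *Lyz2*, *Fcgr1* and *Cd14*) were above 3 counts in every group, 8 of 8, and summed to between 43980 and 68610 CPM, the unit in which a count is scaled to the normalized total of its library. *Lyz2* made up most of this sum. Against untreated cells, *Itgam*, *Fcgr1*, *Cd14* and *Adgre1* were higher in the difference (log2 fold changes of 1.07, 1.07, 0.78 and 0.31) and *Itgam* (0.90) and *Fcgr1* (0.60) in the remainder, while *Cd14* was lower with IL-4 (-0.51).

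All 9 phosphatase genes passed the filter of at least 10 counts in at least 3 libraries. Levels of different genes were compared as CPM per kb of exon. In untreated cells, *Dusp3* had the highest level, at 51.4 ± 5.90 CPM per kb (SD, n = 3), followed by *Dusp7* at 25.9 ± 2.38 CPM per kb (SD, n = 3). *Dusp1* (10.7 CPM per kb), *Dusp6* (8.76) and *Dusp4* (8.14) came next, and the libraries of *Dusp6* and *Dusp4* overlapped. *Dusp2* (2.67), *Dusp5* (1.94) and *Dusp16* (1.62) were lower, with overlap between *Dusp5* and *Dusp16*, and *Dusp10* was lowest at 0.796 ± 0.0766 CPM per kb (SD, n = 3). *Dusp4* changed its place in this order. In the IL-4 libraries it had 25.7 ± 3.67 CPM per kb (SD, n = 3), a level that overlapped that of *Dusp7* (27.0 ± 1.95). In the remainder it had 47.2 ± 6.78 CPM per kb (SD, n = 3), which overlapped *Dusp3* (42.2 ± 3.52). In the difference it had 7.91 ± 0.769 CPM per kb (SD, n = 3), below *Dusp7* and above *Dusp6*. *Dusp6* (5.03) stood above *Dusp1* (4.14) in the difference without overlap, and at the lower end *Dusp10* (0.816) overlapped both *Dusp2* (1.02) and *Dusp5* (0.706), which did not overlap each other.

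**Figure D1:**
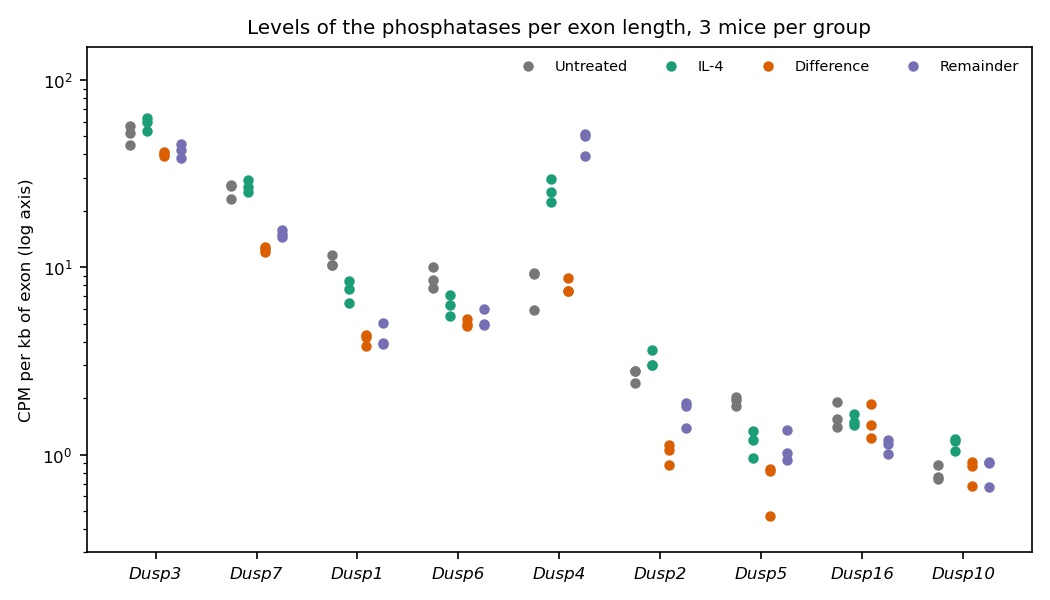
Level of each phosphatase gene in CPM per kb of exon on a log axis, with 1 point per mouse and the genes in the order of their untreated means. *Dusp4* moves from 8.14 in untreated cells to 47.2 CPM per kb in the remainder, where it lies beside *Dusp3*.

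The question of the comparisons was how IL-4 and Wnt3a, alone and together, altered these genes. Counts were tested with edgeR's quasi-likelihood test over 12421 genes, and a gene was called at an adjusted p under 0.05. IL-4 changed 2 of the 9 genes, with *Dusp4* higher and *Dusp1* lower, against 3.40% of all genes tested. Against untreated cells, 6 of 9 were lower in the difference and 0 higher, with 23.2% of all genes called in either direction. In the remainder 8 of 9 were called, 7 lower and *Dusp4* higher, with 25.3% of all genes called. The median log2 fold change of the 9 genes was -0.80 in the difference and -0.65 in the remainder, beside -0.01 and -0.02 over all genes tested, and was 0.06 with IL-4. Over the whole table, 1462 genes were called higher and 1422 lower in the difference, 1687 higher and 1450 lower in the remainder, and 287 higher and 135 lower with IL-4. Scaling by total count alone moved these splits to 1131 and 2238, 1293 and 2342, and 247 and 212, and the median of all genes to -0.10 in the difference and -0.13 in the remainder, while the directions called for the 9 genes did not flip. These 3 comparisons share the untreated libraries. Without mouse 1, 2 or 3, only *Dusp4* was called with IL-4 (1 of 9). The number of all genes called with IL-4 was then 292, 296 and 77, beside 422 with every mouse. The calls in the remainder numbered 5 without mouse 2, 4 without mouse 3 and 5 without the remainder library of mouse 3. Over the whole table, 3807, 1375 and 2371 genes were called in these settings, beside 3137 with all libraries.

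Between the parts, the remainder was higher than the difference for *Dusp2* and *Dusp4*, 2 of 9, with 5.25% of all genes called, and for *Dusp4* alone (1 of 9) without mouse 1, 2 or 3. The number of all genes called between the parts was then 379, 1188 and 97, beside 652 with every mouse. Against the IL-4 libraries, 5 of 9 genes were called in the remainder (4 lower, 1 higher), with 20.3% of all genes called, and 5 of 9 in the difference (all lower), also with 20.3% of all genes called. These 2 comparisons share the IL-4 libraries. *Dusp7* was lower than with IL-4 by 0.84 on the log2 scale in the remainder and by 1.11 in the difference, *Dusp2* by 0.92 and 1.65, and *Dusp3* by 0.47 and 0.54. *Dusp4* was higher than with IL-4 in the remainder (0.88) and lower in the difference (-1.70). Without mouse 3, the calls in the remainder against IL-4 were reduced to *Dusp3* and *Dusp7*, while *Dusp1* (adjusted p = 0.055), *Dusp2* (0.093) and *Dusp4* (0.052) missed the threshold in edgeR's quasi-likelihood test. All genes called in that comparison numbered 1043 without mouse 3, beside 2521 with every mouse.

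**Figure D2:**
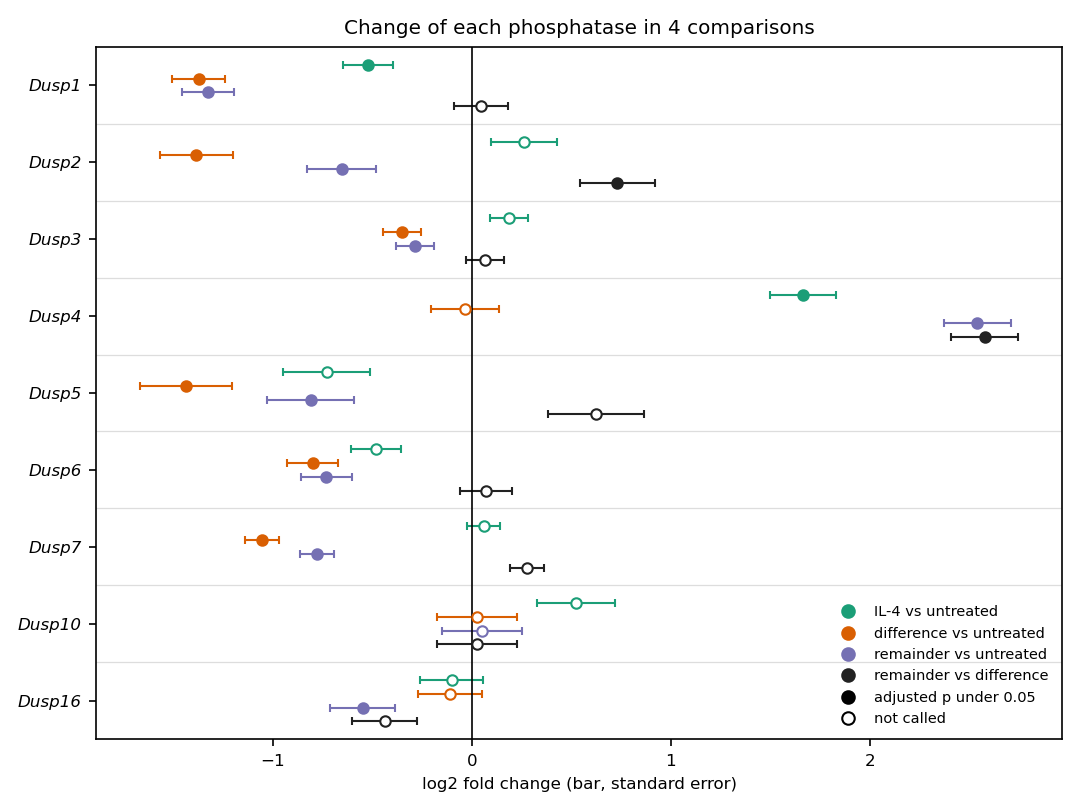
Log2 fold change of each phosphatase gene in 4 comparisons, with bars for the SE and filled points for an adjusted p under 0.05. *Dusp4* is the gene to the right of 1 in IL-4 (1.66) and in the remainder (2.54). *Dusp1*, *Dusp2*, *Dusp3*, *Dusp5*, *Dusp6*, *Dusp7* and *Dusp16* lie left of 0 in both parts, with *Dusp16* called only in the remainder.

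*Dusp1*, *Dusp6* and *Dusp7* were called lower than in untreated cells in both parts under each of the 23 alternative settings, and the sequence before their start sites is shown for this reason. RefSeq (GRCm38.p6) gave a promoter for 8 of the 9 genes, and the name without one was *Dusp4*. The windows cover the 250 bases before the start, with 47 bases of *Dusp1* left out because GENCODE places them in an exon. By the same rule all 250 bases of *Dusp5* and *Dusp10* and 8 of *Dusp3* would be left out, but every window was searched in full. The windows of *Dusp1*, *Dusp3*, *Dusp5* and *Dusp10* lie wholly or partly inside the gene spans of GENCODE, not upstream of them. Capitals mark matches to the motifs searched on both strands, which were the cAMP response element TGACGTCA, its core TGACG, the AP-1 site TGANTCA, the TCF/LEF site CTTTGNT, the STAT site TTCNNNGAA and the STAT6-type site, with the same ends 4 bases apart.
*Dusp1*, chr17:26508520-26508722, minus strand: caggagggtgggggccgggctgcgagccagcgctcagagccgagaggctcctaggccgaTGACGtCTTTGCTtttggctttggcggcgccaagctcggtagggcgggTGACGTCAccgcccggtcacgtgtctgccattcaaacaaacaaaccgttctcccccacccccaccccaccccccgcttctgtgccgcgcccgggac
*Dusp6*, chr10:99262981-99263230, plus strand: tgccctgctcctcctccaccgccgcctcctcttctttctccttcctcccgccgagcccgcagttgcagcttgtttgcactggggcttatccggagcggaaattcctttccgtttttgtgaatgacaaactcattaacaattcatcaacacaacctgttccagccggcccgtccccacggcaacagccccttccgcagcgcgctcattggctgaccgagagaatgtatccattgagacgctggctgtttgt
*Dusp7*, chr9:106368382-106368631, plus strand: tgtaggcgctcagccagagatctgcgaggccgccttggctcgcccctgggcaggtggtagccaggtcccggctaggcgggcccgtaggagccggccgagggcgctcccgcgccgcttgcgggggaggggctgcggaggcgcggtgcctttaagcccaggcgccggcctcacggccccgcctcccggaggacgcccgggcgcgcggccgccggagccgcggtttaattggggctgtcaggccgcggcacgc
The *Dusp1* window held the full cAMP response element from 143 to 136 bases before the start, a further core from 191 to 187 bases and a TCF/LEF match from 185 to 179 bases before it, and the core also lies on both strands within the full element. Over all 32851 windows, 1.55% held the full element, 17.8% the core and 16.0% the TCF/LEF letters. The *Dusp6* and *Dusp7* windows held none of the 6 motifs, and neither did those of *Dusp2*, *Dusp3* and *Dusp10*. *Dusp5* held a core from 55 to 51 bases and *Dusp16* 1 from 70 to 66 bases before the start. The AP-1, STAT and STAT6-type letters occurred in 6.75%, 7.02% and 5.85% of all windows and in none of the 8.

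Among the nuclear enzymes, *Dusp4* was the gene that rose with IL-4 and in the remainder. *Dusp4* (ENSMUSG00000031530, chr8:34807297-34819894 of mm10) encodes an inducible phosphatase that acts on ERK, p38 and JNK. It had 16.3, 25.2 and 25.5 CPM in the untreated cells of mouse 1, 2 and 3. With IL-4 it had 80.9, 60.9 and 69.2 CPM. The difference held 24.1, 20.4 and 20.5 CPM and the remainder 142, 108 and 138 CPM. Each IL-4 library was above each untreated library and each remainder library was above each IL-4 library, whereas the difference overlapped the untreated libraries. The log2 fold change and its standard error (SE) were 1.66 with IL-4 (SE 0.17, edgeR quasi-likelihood adjusted p = 4e-05) and 2.54 in the remainder (SE 0.17, adjusted p = 9e-08), a 5.81-fold increase. In the difference it was -0.04 (SE 0.17, adjusted p = 0.91). Between the parts, the remainder was 5.96-fold higher (log2 fold change 2.57, adjusted p = 7.9e-07), and against IL-4 it was 1.84-fold higher (0.88, adjusted p = 0.001). The adjusted p of this last comparison was 0.052 without mouse 3. When the columns were used as deposited, in which the reads of the parts are summed, the Wnt3a column was higher than untreated cells by 1.36 (adjusted p = 3.3e-05) and the Wnt3a+IL-4 column by 1.75 on the log2 scale, and they differed from each other by 0.39 (adjusted p = 1).

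*Dusp1* moved the other way. *Dusp1* (ENSMUSG00000024190, chr17:26505590-26562128), an immediate-early gene whose product acts on p38 and JNK, had 34.2, 38.6 and 33.9 CPM in the untreated cells of mouse 1, 2 and 3. It had 21.2, 27.9 and 25.3 CPM with IL-4. The difference held 14.5, 14.1 and 12.6 CPM and the remainder 16.7, 12.8 and 13.0 CPM. Untreated libraries were highest, IL-4 libraries lay between, and both parts were lowest and overlapped each other. *Dusp1* fell 2.59-fold in the difference (log2 fold change -1.37, SE 0.13, edgeR quasi-likelihood adjusted p = 3.9e-06) and 2.51-fold in the remainder (-1.32, SE 0.13, adjusted p = 4.5e-06). Between the parts the log2 fold change was 0.05 (SE 0.14, adjusted p = 0.89). With IL-4 the log2 fold change was -0.52 (SE 0.13, adjusted p = 0.038), and this call was lost in 11 of 23 alternatives. It was lost with the mouse as replicate block (-0.52, adjusted p = 0.063), without mouse 1, 2 or 3 (-0.44 to -0.58, adjusted p = 0.079 to 0.36) and without any untreated library, the IL-4 library of mouse 1 or 3, or the difference library of mouse 2 or 3 (-0.42 to -0.56, adjusted p = 0.05 to 0.18). The log2 fold change stayed negative in each of the 23 alternatives. *Dusp1* was lower than in the IL-4 libraries in both the difference (-0.85, adjusted p = 0.00028) and the remainder (-0.80, adjusted p = 0.00052).

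*Dusp2* (ENSMUSG00000027368, chr2:127336159-127338376) encodes a nuclear phosphatase of immune cells that acts on ERK and p38. It had 5.59, 5.60 and 4.83 CPM in untreated cells and 6.05, 6.01 and 7.22 CPM with IL-4. The difference held 2.12, 1.77 and 2.25 CPM and the remainder 3.79, 3.63 and 2.76 CPM. The difference libraries were lowest and the remainder libraries lay between them and the untreated libraries, with no overlap. *Dusp2* fell by 1.38 on the log2 scale in the difference (SE 0.18, edgeR quasi-likelihood adjusted p = 7.9e-05) and by 0.65 in the remainder (SE 0.17, adjusted p = 0.013). The call in the remainder was lost without mouse 1, 2 or 3 (adjusted p = 0.057, 0.056 and 0.12) and without the remainder library of mouse 3 (0.067). The remainder exceeded the difference by 0.73 (SE 0.19, adjusted p = 0.04). This call was lost in 16 of 23 alternatives, among them the mouse as replicate block (0.73, adjusted p = 0.065), each mouse left out (0.60 to 0.93, adjusted p = 0.15 to 0.25), and the omission of the untreated library of mouse 3, the IL-4 library of mouse 1 or 2, any difference library, or the remainder library of mouse 1 or 2 (adjusted p = 0.052 to 0.15). With IL-4 the log2 fold change was 0.26 (SE 0.17, adjusted p = 0.53).

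*Dusp5* (ENSMUSG00000034765, chr19:53529109-53542431), whose product is specific for ERK, was among the scarcest of the 9, at 16 to 84 counts per library. It had 4.52, 5.02 and 4.83 CPM in untreated cells, 3.30, 2.94 and 2.38 CPM with IL-4, 2.06, 2.02 and 1.16 CPM in the difference and 3.35, 2.52 and 2.30 CPM in the remainder. Each treated library was below each untreated library, and the IL-4 and remainder libraries overlapped. *Dusp5* fell by 1.43 on the log2 scale in the difference (SE 0.23, edgeR quasi-likelihood adjusted p = 0.00043) and by 0.81 in the remainder (SE 0.22, adjusted p = 0.015). The latter call was lost without mouse 2 (adjusted p = 0.093), mouse 3 (0.12) or the remainder library of mouse 3 (0.07). With IL-4 the log2 fold change was -0.73 (SE 0.22, adjusted p = 0.10). Against IL-4, the difference was lower by 0.70 (adjusted p = 0.054). This was called with total-count scaling, with the mouse as replicate block (-0.71, adjusted p = 0.041) and without the remainder library of mouse 1 (-0.69, adjusted p = 0.048). Of the exon bases of *Dusp5*, 22.1% overlap a gene on the other strand (*AC137853.2*). The strand setting of the counting is not given in the sources used here. Whether reads in this overlap were counted for *Dusp5*, for that gene or for neither is therefore not known.

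The 2 cytoplasmic, ERK-preferring enzymes were both lower in both parts. *Dusp6* (ENSMUSG00000019960, chr10:99263231-99267489), a feedback target of ERK, had 24.2, 26.7 and 31.4 CPM in untreated cells and 17.2, 19.6 and 22.2 CPM with IL-4. The difference held 15.5, 15.3 and 16.5 CPM and the remainder 15.6, 15.3 and 18.7 CPM. Both parts and the IL-4 libraries lay below all untreated libraries, and the parts overlapped. *Dusp6* fell 1.74-fold in the difference (log2 fold change -0.80, SE 0.13, edgeR quasi-likelihood adjusted p = 0.00041) and 1.66-fold in the remainder (-0.73, SE 0.13, adjusted p = 0.00071). With IL-4 the log2 fold change was -0.48 (SE 0.13, adjusted p = 0.056), just outside the threshold. It was called in 7 of 23 alternatives. These were the mouse as replicate block (-0.48, adjusted p = 0.022), the omission of the IL-4 library of mouse 3 (-0.60, adjusted p = 0.045) or the remainder library of mouse 2 (-0.49, adjusted p = 0.046), DESeq2 (-0.49, adjusted p = 0.02), total-count scaling (-0.53, adjusted p = 0.041), all genes with at least 1 count (-0.49, adjusted p = 0.014) and the columns as deposited (-0.49, adjusted p = 0.033).

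*Dusp7* (ENSMUSG00000053716, chr9:106368632-106375724) showed a clear separation of the Wnt3a-treated libraries. It had 77.7, 91.9 and 91.3 CPM in untreated cells and 84.6, 89.6 and 97.6 CPM with IL-4. The difference held 40.5, 41.9 and 43.3 CPM and the remainder 50.5, 48.6 and 53.0 CPM. Untreated and IL-4 libraries overlapped, all libraries of the parts lay below them, and the difference lay below the remainder in each mouse. *Dusp7* fell 2.08-fold in the difference (log2 fold change -1.05, SE 0.09, edgeR quasi-likelihood adjusted p = 8.1e-07) and 1.71-fold in the remainder (-0.78, SE 0.09, adjusted p = 1.1e-05). The remainder exceeded the difference by 0.28 (SE 0.09, adjusted p = 0.087) without passing the threshold. With IL-4 the log2 fold change was 0.06 (SE 0.08, adjusted p = 0.83).

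**Figure D3:**
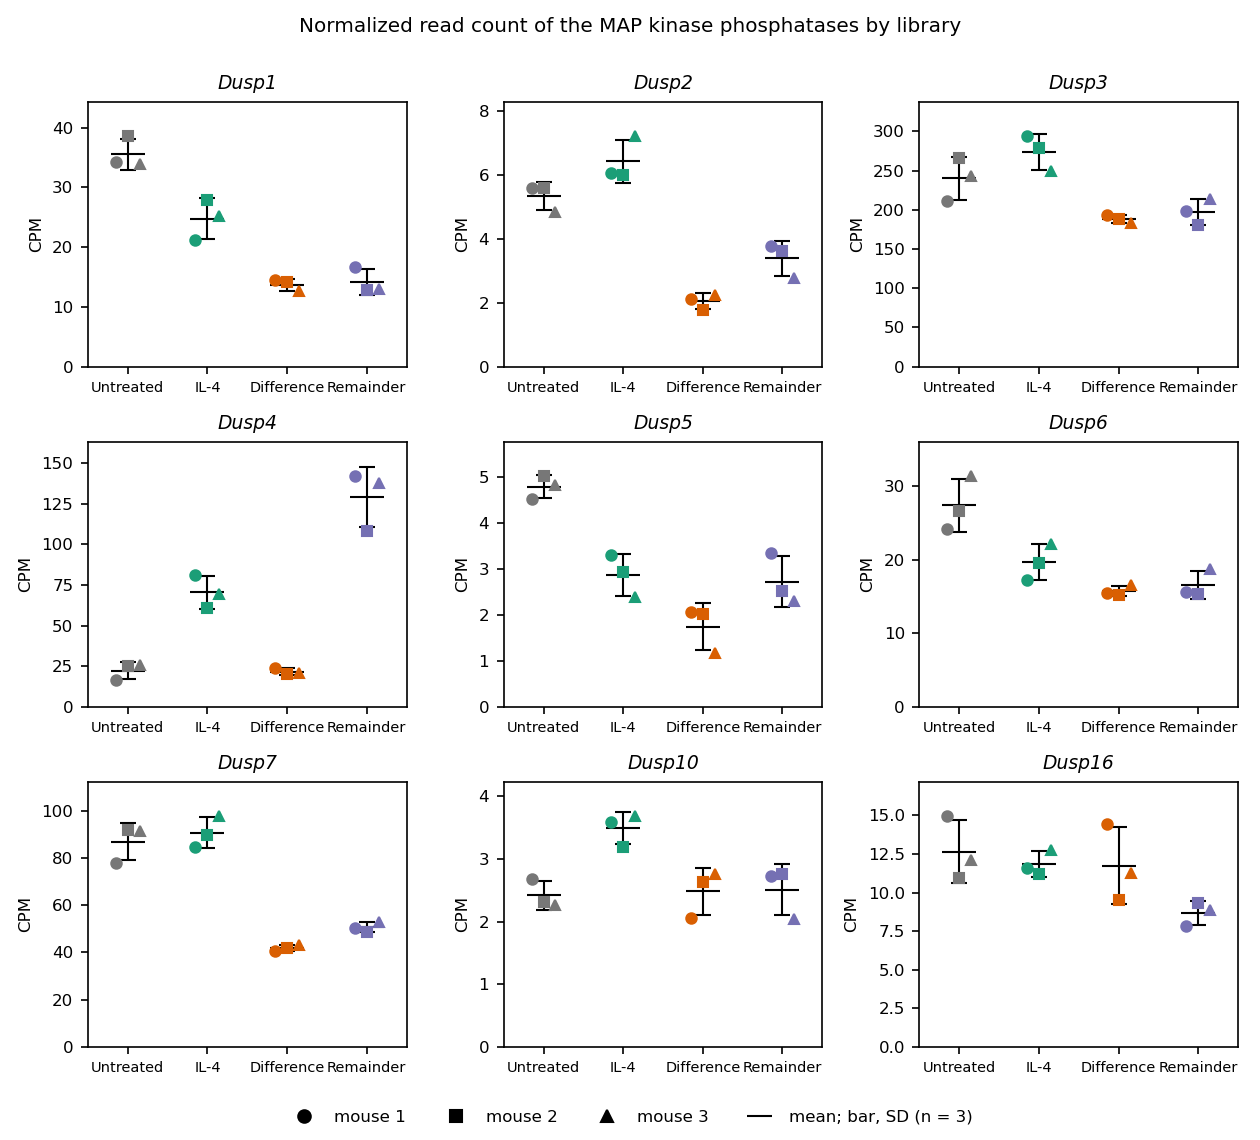
CPM of each phosphatase gene by group, with a marker shape per mouse, a line for the mean and bars for the SD of 3 mice, on axes that start at 0. *Dusp7* drops from 86.9 in untreated cells to 41.9 in the difference and 50.7 CPM in the remainder, while *Dusp4* stands at 129.3 CPM in the remainder.

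Of *Dusp10* and *Dusp16*, the p38- and JNK-preferring enzymes among the 9, only *Dusp16* was called against untreated cells, in the remainder. *Dusp8*, whose product also acts on p38 and JNK, is not among the 9 and is described below. *Dusp10* (ENSMUSG00000039384, chr1:184013302-184075636) was rare, at 31 to 60 counts per library. It had 2.42 ± 0.23 CPM (SD, n = 3) in untreated cells, 3.49 ± 0.26 with IL-4, 2.48 ± 0.37 in the difference and 2.51 ± 0.41 in the remainder. The IL-4 libraries were all above the untreated ones, with a log2 fold change of 0.52 (SE 0.19, edgeR quasi-likelihood adjusted p = 0.20), and the parts overlapped the untreated libraries (0.03 and 0.05, adjusted p = 0.94 and 0.88). *Dusp16* (ENSMUSG00000030203, chr6:134715468-134792625) had 14.9, 10.9 and 12.1 CPM in untreated cells, 11.6, 11.2 and 12.8 CPM with IL-4, 14.4, 9.53 and 11.3 CPM in the difference and 7.83, 9.34 and 8.87 CPM in the remainder. The remainder libraries were below those of each other group. *Dusp16* fell by 0.55 on the log2 scale in the remainder (SE 0.16, adjusted p = 0.023), and this call was lost without mouse 1 (adjusted p = 0.16), mouse 3 (0.17), the untreated library of mouse 1 (0.11), or the remainder library of mouse 1 (0.095) or 3 (0.058), and with the columns as deposited (-0.33, adjusted p = 0.09). The direct comparison of the parts gave -0.44 (SE 0.16, adjusted p = 0.15).

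*Dusp3* (ENSMUSG00000003518, chr11:101971143-101987013), which is expressed in most cell types and acts on ERK and JNK, was the most abundant of the 9 per kb in untreated cells and showed small differences. It had 211, 266 and 244 CPM in untreated cells, 294, 279 and 249 CPM with IL-4, 194, 189 and 183 CPM in the difference and 199, 180 and 213 CPM in the remainder. The difference lay below all untreated libraries and the remainder overlapped them. *Dusp3* fell by 0.35 on the log2 scale in the difference (SE 0.10, edgeR quasi-likelihood adjusted p = 0.016) and by 0.28 in the remainder (SE 0.10, adjusted p = 0.043). The first call was lost without mouse 2 (adjusted p = 0.13), mouse 3 (0.17), the untreated library of mouse 2 (0.07) or the difference library of mouse 3 (0.06). The second was lost with the mouse as replicate block (-0.28, adjusted p = 0.074), without mouse 2 or 3 (0.41 and 0.16), without the untreated or difference library of mouse 2 or 3, and without the remainder library of mouse 1 or 2 (adjusted p = 0.057 to 0.16). This second call was also lost with only the groups compared. With IL-4 the log2 fold change was 0.19 (SE 0.10, adjusted p = 0.40). For *Dusp3*, 12.9% of exon bases overlap *Gm20659* on the other strand, and how reads there were counted is likewise not known.

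Whether the IL-4 effect differed with Wnt3a depends on which part is taken as Wnt3a+IL-4. Of the 287 genes called higher with IL-4, 160 were called higher in the remainder than in the difference and 2 lower, and of the 135 called lower with IL-4, 1 was called higher and 59 lower. These comparisons share no libraries. *Arg1*, the arginase gene used as a marker of IL-4-treated macrophages and chosen here after its values were seen, had 0.0638 ± 0.0643 CPM in untreated cells, 1.53 ± 0.147 with IL-4, 0.0204 ± 0.0353 in the difference and 12.8 ± 10.6 in the remainder (SD, n = 3). Because the labels do not assign the parts, both assignments are given. With the remainder as Wnt3a+IL-4, the difference between the IL-4 effects was called for 0 of 9 genes by edgeR's quasi-likelihood test (0.105% of all genes called), for 4 genes at an unadjusted p under 0.05 (12.7% of all genes), and for *Dusp4* by DESeq2 (0.91, adjusted p = 0.019). Those 4 genes were *Dusp5* (1.35, SE 0.33, adjusted p = 0.13), *Dusp4* (0.91, SE 0.23, adjusted p = 0.15), *Dusp1* (0.57, SE 0.19, adjusted p = 0.24) and *Dusp6* (0.55, SE 0.18, adjusted p = 0.24), all with positive values, which stand for a higher IL-4 fold change in the presence of Wnt3a. With the difference as Wnt3a+IL-4, 2 of 9 genes were called (7.33% of all genes called), *Dusp4* at -4.24 (SE 0.24, adjusted p = 5.9e-08) and *Dusp2* at -0.996 (SE 0.25, adjusted p = 0.026). The *Dusp2* call was lost without mouse 1, 2 or 3 (adjusted p = 0.12, 0.11 and 0.19), and without the untreated or IL-4 library of mouse 3, the difference library of mouse 2 or the remainder library of mouse 1 (adjusted p = 0.07 to 0.077).

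Across the 12 libraries, which share 4 conditions, 3 mice and similar depth, the log2 CPM of *Dusp2* and *Dusp7* had a Pearson r of 0.93, that of *Dusp1* and *Dusp7* 0.89, and that of *Dusp4* and *Dusp16* -0.64. The tested genes with at least 1 CPM on average whose pattern was most like that of *Dusp1* were *Ccl4*, a chemokine gene (r = 0.984), *Rims3* (0.982) and *Cdk5r1* (0.978). For *Dusp2* they were *Enpp1* (0.975), *Myc* (0.967) and *Cd83* (0.961), and for *Dusp7* *Emp1* (0.984), *Ets1* (0.982) and *Plau* (0.982). *Dusp4* was most like *Rnf19b* (0.977), *Pcyox1l* (0.976) and *Arg1* (0.976). *Arg1* was near 0 in untreated cells (mean 0.0638 CPM) and in the difference (0.0204 CPM). It reached an average of 1 CPM only through the other groups. *Dusp3* was nearest to *Cpt1a* (0.980), *Cdk18* (0.977) and *Inppl1* (0.974), *Dusp5* to *Ranbp10* (0.961), *Irf2bp2* (0.914) and *Sv2a* (0.911), and *Dusp6* to *Fcrls* (0.956), *Paox* (0.937) and *B3gnt9* (0.934). *Dusp16* was nearest to *Vezf1* (0.941), *Mbtd1* (0.933) and *Trp53inp1* (0.925), and the rare *Dusp10* reached at most 0.843, with *Rbbp7*, followed by *Pole2* (0.839) and *Gm38158* (0.836).

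Genes for the MAP kinases, on which the phosphatases act, and for the kinases upstream of them were examined in the same comparisons. Against untreated cells, 23.2% of all genes were called for the difference and 25.3% for the remainder. With IL-4 the share was 3.40%, so 0 calls among 9 or 7 genes cannot be told from it. Whether the kinase lists differ from these shares was not tested. Of the 9 MAP kinase genes tested, 0 were called with IL-4, 0 in the difference and 1 in the remainder, *Mapk7*, which encodes ERK5 (log2 fold change -0.43, edgeR quasi-likelihood adjusted p = 0.0016). Of the 7 MAP kinase kinase genes, 0 were called against untreated cells in any group. Among the 17 MAP kinase kinase kinase genes tested, *Map3k9* was lower in the difference (-1.04, adjusted p = 8.5e-05) and the remainder (-1.01, adjusted p = 9.5e-05). *Map3k5*, the stress-activated kinase ASK1, was lower in the remainder than in untreated cells (-1.04, adjusted p = 1.4e-05) and than in the difference (-0.74, adjusted p = 0.0019). These 2 genes were the calls of this class in the remainder against untreated cells, and the count became 4 without mouse 1 and 5 without mouse 2. Total-count scaling raised the calls in the remainder to 3 MAP kinases, 1 MAP kinase kinase and 6 MAP kinase kinase kinases. All genes called in the remainder numbered 3137 in the main settings. They numbered 2325 without mouse 1, 3807 without mouse 2 and 3635 with total-count scaling.

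Genes that ERK signaling induces or that act in its feedback were called mostly in the lower direction in the Wnt3a-treated libraries. Of 19 tested ERK feedback and early genes, 13 were called in the difference (11 lower) and 14 in the remainder (11 lower), that is 68.4% and 73.7% of the list beside 23.2% and 25.3% of all genes. The medians were -0.66 and -0.65, while IL-4 gave 5 calls (3 higher, 2 lower) and a median of 0.02. With IL-4, *Egr2* had the highest log2 fold change (2.38, edgeR quasi-likelihood adjusted p = 8.9e-08) and *Egr3* the lowest (-1.56, adjusted p = 0.043), and *Myc* (0.77), *Ier3* (0.52) and *Egr1* (-1.20) were the other calls. *Egr3* had 8 counts or fewer in each IL-4 library. In the difference, *Ier3* was highest (0.88, adjusted p = 1.7e-05) and *Fosb*, at 5 counts or fewer in each library, was lowest (-2.83, adjusted p = 0.0046). In the remainder *Egr2* was highest (1.66, adjusted p = 2.6e-07), and *Fosb*, at 3 counts or fewer in each library, was lowest and is given no fold. *Egr2*, a transcription factor gene, had 8.80 ± 1.70 CPM in untreated cells, 45.8 ± 1.73 with IL-4, 4.81 ± 0.297 in the difference and 27.9 ± 0.869 in the remainder (SD, n = 3). The genes of this list that were higher in the remainder than in the difference were *Egr2* (2.54), *Myc* (1.49) and *Ier3* (0.50). Without mouse 3, 1 gene of the list was called with IL-4 and 8 in the difference, and without mouse 1, 3 were called with IL-4. The whole table gave 77 calls with IL-4 and 1220 in the difference without mouse 3, and 292 with IL-4 without mouse 1.

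Of 19 tested effectors of p38 and JNK, 0 were called with IL-4, 5 in the difference, all lower, and 6 in the remainder, 5 of them lower. These were 26.3% and 31.6% of the list, close to the 23.2% and 25.3% of all genes. *Zfp36*, which encodes an mRNA-destabilizing protein controlled by p38, was lowest in the difference (-0.93, edgeR quasi-likelihood adjusted p = 8e-06), and the others there were *Zfp36l1* (-0.51), *Mapk8ip3* (-0.44), *Zfp36l2* (-0.36) and *Mknk1* (-0.19). In the remainder *Mapkapk3*, a kinase activated by p38, was highest (0.49, adjusted p = 0.00033) and *Rps6ka5* lowest (-0.82, adjusted p = 0.002). *Zfp36l1* (0.89), *Zfp36* (0.65) and *Mapkapk3* (0.48) were higher in the remainder than in the difference. The 5 calls in the difference became 3 with the mouse as replicate block and 3, 3 and 1 without mouse 1, 2 and 3. They became 2 or 3 without any 1 untreated or difference library, or without the remainder library of mouse 3. All genes called in the difference numbered 2884 in the main settings and 2659 with the replicate block. They numbered 2117, 1951 and 1220 without mouse 1, 2 and 3, and 2198 to 2677 without those single libraries. The 6 calls in the remainder became 2 without mouse 3, with 1375 of all genes called. The 3 calls between the parts became 6 without mouse 2 or its remainder library, 5 without its untreated library and 1 without mouse 3. In the same order, 1188, 1159, 825 and 97 of all genes were called between the parts.

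Of 13 other dual-specificity phosphatase genes tested, 0 were called with IL-4, 6 in the difference (2 higher, 4 lower) and 7 in the remainder (3 higher, 4 lower), that is 46.2% and 53.8% of the list beside 23.2% and 25.3% of all genes. *Dusp8*, whose product also acts on p38 and JNK, was the lowest in both parts (-1.80, adjusted p = 0.0019 and -0.97, edgeR quasi-likelihood adjusted p = 0.04), while *Dusp18* was highest in the difference (0.70, adjusted p = 0.0028) and *Dusp13* in the remainder (0.99, adjusted p = 0.016). *Dusp8* had 14 counts or fewer in each difference library and 18 or fewer in each remainder library. The slingshot phosphatase gene *Ssh2* was lower in the remainder than in the difference (-0.84, adjusted p = 0.0012). The median log2 fold change of the class was -0.04 in the difference and -0.08 in the remainder. Without mouse 1, 2 and 3 the calls became 3, 2 and 3 in the difference and 3, 4 and 0 in the remainder, and those in the remainder became 4 without the untreated or the remainder library of mouse 1. With each mouse left out in that order, 2117, 1951 and 1220 of all genes were called in the difference. In the remainder 2325, 3807 and 1375 were called, and 2527 and 2412 without the untreated or the remainder library of mouse 1.

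**Figure D4:**
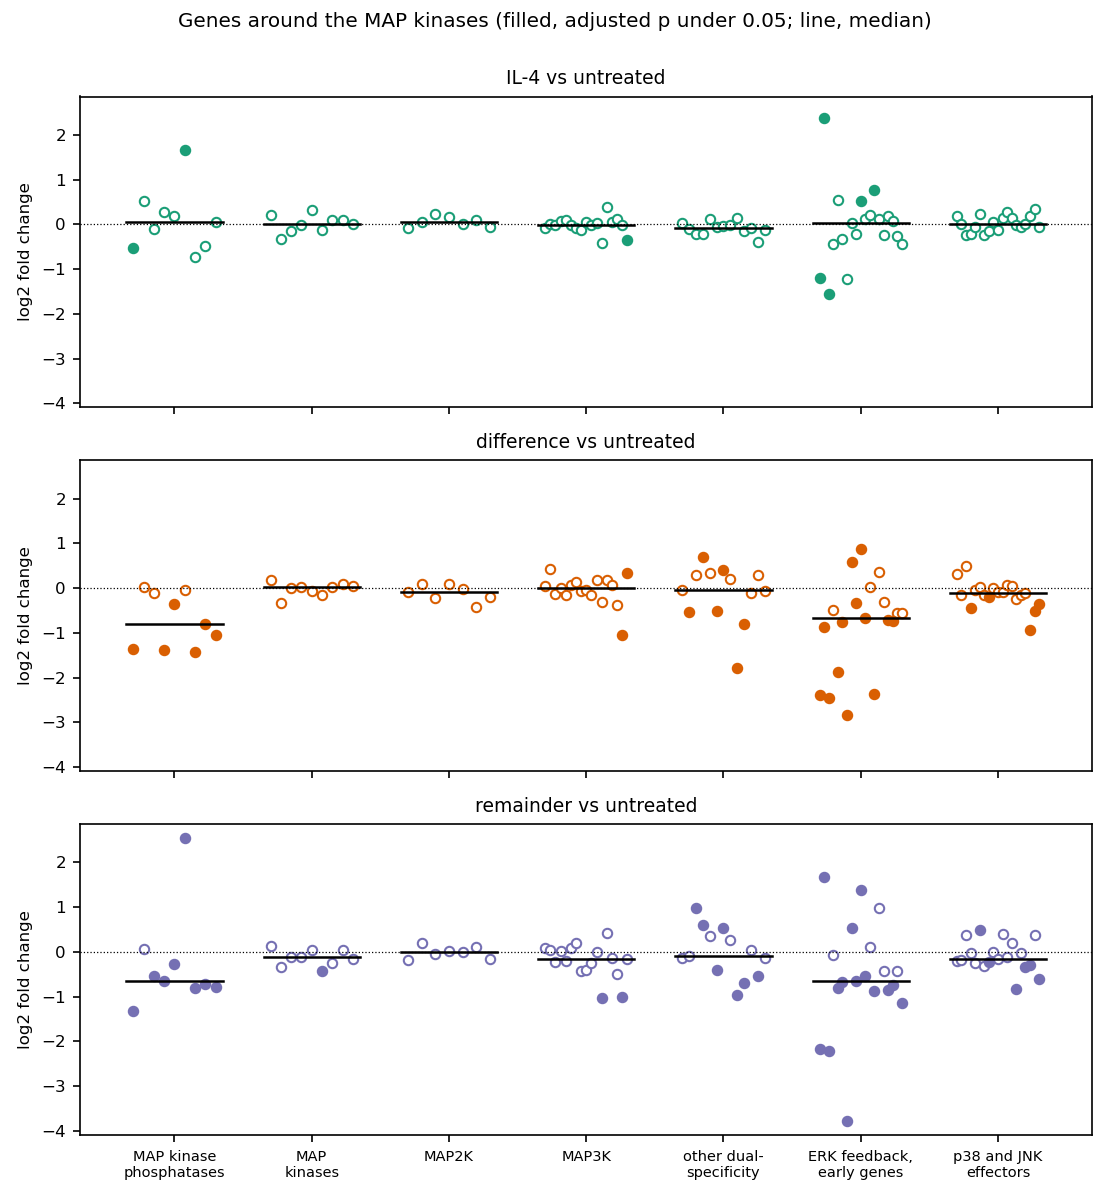
Log2 fold change against untreated cells of the 9 phosphatase genes and of 6 lists of genes around the MAP kinases, with 1 point per tested gene, filled where the adjusted p was under 0.05, and a line at each median. The medians of the phosphatases (-0.80 and -0.65) and of the ERK feedback and early genes (-0.66 and -0.65) lie below 0 in both parts.

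Transcripts of other cells were measured in the same libraries. The neutrophil markers summed to 48.9 to 61.7 CPM in untreated cells, 65.0 to 75.7 with IL-4, 35.7 to 56.7 in the difference and 32.0 to 36.3 in the remainder, with 4 of 6 tested markers lower in the remainder. The dendritic cell markers summed to 0.965 to 1.51 CPM in untreated cells, 1.79 to 1.92 with IL-4, 3.13 to 7.84 in the difference and 8.48 to 21.1 in the remainder. *Ccr7* made up most of the sum in both parts, with 4.05 ± 2.18 CPM in the difference and 11.3 ± 7.35 CPM in the remainder (SD, n = 3), and was higher than in untreated cells in both (log2 fold changes of 3.94 and 5.41). *Zbtb46* was higher in the remainder (1.56), and *Flt3*, *Xcr1*, *Clec9a* and *Siglech* had mean levels of at most 0.323 CPM in every group and were not tested. Stromal markers summed to 10.5 to 22.8 CPM in untreated cells, 12.7 to 34.1 with IL-4, 12.8 to 19.5 in the difference and 11.4 to 23.6 in the remainder. Among them *Acta2* was higher in the difference (1.40) and the remainder (1.02) and *Pdgfrb* in the difference (0.995), while *Col1a1* (-0.81) and *Col1a2* (-1.43) in the difference did not pass the threshold. Lymphocyte markers reached at most 0.505 CPM. *Ly6g* was at 0 in the untreated libraries, and *Pdgfra* and *Lum* in the untreated and remainder libraries. Their part in the results was not tested. In these bulk samples, fewer cells of a type and less RNA per cell cannot be told apart.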

How the data were processed

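RNA-seq of BMDMs from 3 mice in 4 groups was used. According to the submitters' processing notes and the methods, the authors ran FastQC 0.11.7 and Trimmomatic 0.36 on single reads, used STAR 2.6.0 for alignment to mm10 and SAMtools 1.9 for indexing, and counted reads on genes with HTSeq 0.11.1. They deposited these counts unnormalized. The methods name UCSC genes, whereas the table holds Ensembl identifiers, of which 48058 of 48526 (99.0%) matched a symbol. Totals were 29879207 to 51905621 in the deposited Wnt3a-containing columns. The difference and remainder were computed from these columns in each mouse.

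A gene was tested if 3 or more libraries had 10 or more counts. The quasi-likelihood test of edgeR 4.0.16 (R 4.3.3) was used on TMM-normalized counts, with the 12 libraries fitted together without a mouse term and p-values adjusted by Benjamini-Hochberg. Standard errors are the log2 fold change divided by the square root of F. CPM used the TMM library sizes. Positions, exon lengths and overlaps came from GENCODE M21. Scripts were tested on simulated data. Alternatives were DESeq2 1.42.0 (the authors used 1.24.0), other scalings and filters, only the groups compared, the mouse as replicate block, each mouse or library left out, and the columns as deposited.

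The samples are paired, since each mouse gave a sample to every group. Same-mouse deviations from the group means correlated between -0.42 and 0.45 over 18 pairs, and 6 were over 0.1. The p-values of the main fit rest on a spread per gene estimated from all 12 libraries around their group means, with 3 libraries per group. This spread was drawn toward that of other genes, and the pairing was not used. Differences between animals, cultures and libraries cannot be told apart in that spread. The genes and lists were chosen with earlier results of these data known. The text names all 9 phosphatases, the highest and lowest called gene of each list, all called genes of a list with 5 or fewer calls, and the 3 genes most like each phosphatase. Results for 2 further genes of the lists are not reported here. *Spry3* of the early gene list matched no single row.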

Additional observations from a re-analysis of the deposited data

Results flagged for a closer look

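The IL-4 effect on *Dusp4* and *Dusp2* differed with and without Wnt3a when the difference was taken as Wnt3a+IL-4 and the remainder as Wnt3a. The difference between the IL-4 effects was -4.24 for *Dusp4* (SE 0.24, edgeR quasi-likelihood adjusted p = 5.9e-08) and -0.996 for *Dusp2* (SE 0.25, adjusted p = 0.026). With the parts taken the other way, it was 0.91 for *Dusp4* (adjusted p = 0.15) and 0.47 for *Dusp2* (adjusted p = 0.47). The *Dusp2* call was lost in 8 of 22 alternatives. The direction therefore depends on an assignment that the labels do not give. Of the 287 genes called higher with IL-4, 160 were called higher in the remainder than in the difference and 2 lower.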

How the results depend on the processing

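Of 30 calls among the 9 genes over 8 comparisons, 17 kept their side of the threshold in all alternatives run and 13 did not, 0 reversed, and of 42 uncalled values 8 were called in at least 1 alternative. The count for the remainder against the difference was 1 with DESeq2, total-count scaling, only the groups compared or the replicate block, and 0 with the columns as deposited. The count for the interaction with the remainder as Wnt3a+IL-4 was 1 with DESeq2, 2 with all genes of at least 1 count and 1 with the columns as deposited, where *Dusp4* was -1.27. That for the other assignment was 1 with the columns as deposited. With mice or libraries left out, the counts ranged from 1 to 3 (IL-4 against untreated), 5 to 6 (difference against untreated), 4 to 8 (remainder against untreated), 1 to 2 (remainder against difference), 2 to 6 (remainder against IL-4), 5 to 6 (difference against IL-4), 0 to 0 and 1 to 2 (interactions). Over all genes, the calls ranged in the same order from 77 to 532, 1220 to 3188, 1375 to 3807 and 97 to 1188. They ranged from 1043 to 3052 and 1208 to 2805 against IL-4, and from 0 to 43 and 265 to 1459 for the interactions. The replicate block, which pairs samples of a mouse, moved the calls given beside the results and no other call of the 9 genes. The interactions were not run with only the groups compared. The causes of these shifts were not tested. Depth limits the precision for *Dusp2*, *Dusp5* and *Dusp10*, which had 29 to 104, 16 to 84 and 31 to 60 counts per library.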
